A study of Mus musculus with 6 samples.

Results

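Plet1, Lrig1, Lgr6, Gata6, Sostdc1 and Defb6 were examined here as genes of the upper hair follicle, the stretch above the bulge that comprises the isthmus, the junctional zone and the infundibulum. They are 6 of the 19618 genes in the count table, matched by gene symbol, and every one was found. The genes were chosen by their known place in the follicle and with the knockout-to-control difference in these libraries already known, so that difference is given below as a description and is not used as support for anything. Gene expression was measured by RNA sequencing of polyadenylated RNA from tail keratinocytes of mice aged 4 months. The study asks how the epidermis differs when Gpr161, a ciliary receptor known to restrain Hedgehog signalling, is deleted there. The 3 knockout samples had the genotype K14cre+/ Gpr161Flox-Homozygous, in which Cre under the keratin 14 promoter acts in basal keratinocytes and in the outer layer of the follicle. Of the 3 control samples, 1 was Gpr161Flox-Homozygous and 2 were Gpr161Flox-Heterozygous. No control carried K14cre according to the labels, so an effect of Cre itself and an effect of the deletion cannot be told apart. Libraries go by the tags in their column names: the knockout ones are DE679, DE685 and DE688, and the control ones are DE680, DE684 and DE689. The tags do not show which control was homozygous.

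The upper follicle holds several keratinocyte populations that replace cells locally. Lrig1 marks stem cells of the junctional zone that feed the infundibulum and the sebaceous gland, Plet1 is the antigen recognised by the MTS24 antibody in the isthmus, and Lgr6 marks cells of the isthmus and also some basal cells of the gland and the interfollicular epidermis. Gata6 is found in the junctional zone and the sebaceous duct. Gli1, a target of Hedgehog signalling, is itself known to mark cells near the isthmus and in the upper bulge.

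Library totals ran from 17157864 to 25344399 estimated counts, and each of the 6 genes had at least 330 counts in every library, with at most 7280. All levels below are CPM, counts scaled to a common library total with TMM factors (trimmed mean of M values), unless given per kilobase of exon. Keratinocyte markers were high throughout: Krt14, the basal keratin, averaged 10392 ± 976 CPM over knockout and 10186 ± 1189 CPM over control libraries (SD, n = 3 each). Gpr161 itself had 28.7 ± 4.22 CPM against 31.4 ± 1.10 CPM, a log2 fold change of −0.13 (SE 0.11, adjusted p 0.553 in the edgeR quasi-likelihood fit), so its whole-gene level does not check the labels. Y-linked transcripts were found in 2 libraries, DE685 of the knockout and DE684 of the control.

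All 6 genes had higher levels in the knockout, and for each of them the lowest knockout library lay above the highest control library. Their fold changes ran from 1.39 for Sostdc1 to 2.81 for Lgr6, with a median log2 fold change of 0.83, against a median of −0.0036 over all 15422 genes tested. All 6 passed the filter on low counts. All knockout libraries lay above all control libraries for 12.8% of the genes tested. In the edgeR quasi-likelihood fit, Plet1 and Defb6, 2 of the 6, were among the genes higher at an adjusted p under 0.05, a call made for 1.24% of the genes tested, with another 0.357% called lower. Because this contrast was known when the genes were chosen, nothing is read from those counts. Plet1 was called in all 6 of the fits that left out a library and Defb6 in 1 of the 6, the fit without DE689, in which Lgr6 was called as well and 0.689% of the genes tested were called higher. The fits without DE679, DE680, DE684, DE685 or DE688 lost the call of Defb6. In that order, they called 89 of 15733, 75 of 15870, 108 of 15838, 93 of 15835 and 65 of 15768 genes tested as higher. Nothing is read from the calls of the 6 genes in any alternative fit either. DESeq2 called 6 of the 6, and over all 14273 genes to which it gave an adjusted p it called 3.92% higher and 2.14% lower. Limma on the deposited normalized values called Plet1, Lgr6 and Defb6, 3 of the 6, and 1.26% of the genes tested as higher. The tag numbers of the libraries fall into neighbouring pairs of a knockout and a control (DE679 with DE680, DE685 with DE684, DE688 with DE689). With these pairs as a replicate block, an alternative added after seeing the data, edgeR called 6 of the 6, and 3.02% of the genes tested higher and 1.55% lower. The log2 fold changes in that fit were 0.82 (SE 0.06) for Plet1, 0.59 (SE 0.08) for Lrig1, 1.56 (SE 0.24) for Lgr6, 0.89 (SE 0.15) for Gata6, 0.47 (SE 0.07) for Sostdc1 and 0.87 (SE 0.14) for Defb6. The meaning of the tags is not given in the sources used here. In RNA from a mixture of cells, more cells of a type and more RNA of the gene per cell cannot be told apart.

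**Figure D1:**
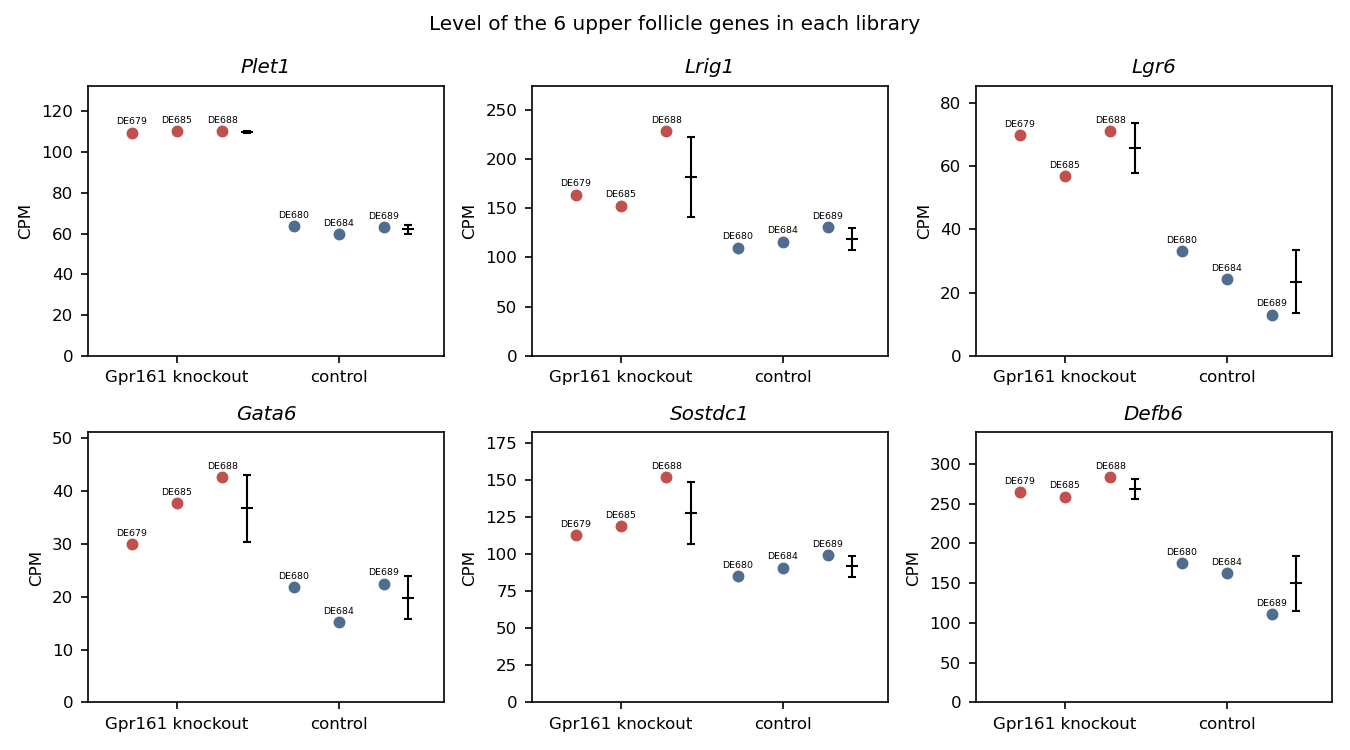
Level of each gene in CPM (vertical axes, starting at 0) in the 3 knockout and 3 control libraries, with each library as a labelled point and the mean ± SD as a bar. In every panel the knockout points lie above the control points. Plet1 has the least spread, and Lgr6 the largest difference between group means relative to its control mean.

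Plet1 encodes a surface protein that is attached to the membrane by a glycolipid anchor and has been used to sort isthmus keratinocytes. Its gene lies on chromosome 9, 50494525 to 50505482, plus strand (GRCm38). Among knockout libraries DE679 had 109.5, DE685 had 110.4 and DE688 had 110.3 CPM, and among controls DE680 had 63.7, DE684 had 59.7 and DE689 had 63.3 CPM. The 3 knockout libraries were thus nearly equal, and the 3 control libraries differed by a factor of 1.07 from lowest to highest. The means were 110.1 ± 0.469 and 62.2 ± 2.22 CPM (SD, n = 3 each), and the log2 fold change was 0.82 (SE 0.05) or 1.77-fold. The SD among the knockout libraries was below the counting error of a single library, 2.25 CPM, so it understates the error. Plet1 shared 261 of its 1947 exonic bases with Plet1os on the opposite strand, whose level was not analysed here. The library kit preserves strand, but whether strand was used in counting is not given in the sources used here.

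The sequence before a start site is shown for Plet1, and below for Lgr6 and Defb6, because Plet1 varied least among libraries, Lgr6 had the largest fold change and Defb6 was the most abundant. Of the 6 genes, 4 had an entry in the RefSeq promoter table (GRCm38.p6), and the 250 bases before each start were searched on both strands. The motifs were GACCACCCA for Gli factors, GATAA for Gata factors, CTTTGA for Tcf/Lef factors and TATAAA for the TATA box. They were present in 0.225%, 22.6%, 13.8% and 12.4% of all 32851 promoters in the table. The Plet1 sequence, chr9:50494275-50494524, plus strand, written 5′ to 3′ with the match in capitals, held TATAAA beginning 30 bases before the start and none of the other motifs. A match is a description of the letters and not a measured binding site.
Plet1: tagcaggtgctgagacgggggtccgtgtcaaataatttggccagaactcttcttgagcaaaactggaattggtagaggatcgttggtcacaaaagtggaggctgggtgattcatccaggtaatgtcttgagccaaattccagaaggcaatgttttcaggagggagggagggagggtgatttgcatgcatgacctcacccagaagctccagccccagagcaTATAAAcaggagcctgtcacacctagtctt

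Lrig1 encodes a transmembrane protein with leucine-rich repeats and immunoglobulin domains that restrains ErbB receptor signalling. Its gene lies on chromosome 6, 94604529 to 94700158, minus strand. Knockout levels were 163.7 (DE679), 152.6 (DE685) and 228.4 CPM (DE688), and control levels 109.8 (DE680), 116.0 (DE684) and 130.9 CPM (DE689). DE688 stood above the other knockout libraries, and the gap between the groups was narrow, with the lowest knockout library 1.17 times the highest control library. The means were 181.5 ± 40.9 and 118.9 ± 10.9 CPM (SD, n = 3 each), and the log2 fold change was 0.61 (SE 0.15). Without DE688 the log2 fold change was 0.41. Exons of Lrig1 share 144 bases with Slc25a26 on the opposite strand, which had 12.7 ± 1.55 against 11.3 ± 1.17 CPM.

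Lgr6 encodes a receptor for R-spondins, secreted proteins that strengthen Wnt signalling. The gene lies on chromosome 1, 134983301 to 135105276, minus strand. Among knockout libraries DE679 had 69.7, DE685 had 56.8 and DE688 had 71.1 CPM, and among controls DE680 had 33.2, DE684 had 24.3 and DE689 had 13.1 CPM. The control libraries differed by a factor of 2.54 from lowest to highest, the widest spread among the 6 genes in either group, and DE689 was the lowest. The means were 65.9 ± 7.91 and 23.5 ± 10.1 CPM (SD, n = 3 each), and the log2 fold change was 1.49 (SE 0.29). Leaving out DE689 gave 1.2, and leaving out DE680 gave 1.82. The promoter, chr1:135105277-135105526, minus strand, held none of the 4 motifs, which says only that these letters are not in the window, and had a GC content of 65.2% against a median of 52.4% over all promoters.
Lgr6: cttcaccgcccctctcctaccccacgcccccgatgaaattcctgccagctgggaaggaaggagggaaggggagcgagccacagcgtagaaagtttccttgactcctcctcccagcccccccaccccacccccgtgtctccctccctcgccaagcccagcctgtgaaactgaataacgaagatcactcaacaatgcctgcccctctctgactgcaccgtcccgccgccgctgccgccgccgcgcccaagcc

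Among secreted products, Sostdc1 encodes a protein that binds Lrp receptors and bone morphogenetic proteins (BMPs) and restrains both Wnt and BMP signalling. The gene lies on chromosome 12, 36314139 to 36318452, plus strand. Knockout levels were 113.1 (DE679), 118.9 (DE685) and 151.9 CPM (DE688), and control levels 85.3 (DE680), 90.9 (DE684) and 99.3 CPM (DE689). This was the smallest difference of the 6, and the lowest knockout library was 1.14 times the highest control library. The means were 127.9 ± 20.9 and 91.9 ± 7.02 CPM (SD, n = 3 each), and the log2 fold change was 0.48 (SE 0.12). Without DE688 it was 0.34.

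Defb6 encodes a beta-defensin, a small secreted antimicrobial peptide. The gene lies on chromosome 8, 19225478 to 19228209, plus strand. Among knockout libraries DE679 had 264.7, DE685 had 258.9 and DE688 had 282.9 CPM, and among controls DE680 had 175.5, DE684 had 162.5 and DE689 had 110.9 CPM. The knockout libraries were close together, while DE689 was again the lowest control. The means were 268.8 ± 12.5 and 149.6 ± 34.1 CPM (SD, n = 3 each), and the log2 fold change was 0.85 (SE 0.15). The nearest other transcript in the annotation was Defb4, with 82.5% identity over 326 aligned bases, and Defb4 had 0.343 ± 0.175 against 0.379 ± 0.273 CPM. The promoter, chr8:19225228-19225477, plus strand, held GATAA beginning 114 bases before the start and the reverse complement of the Tcf/Lef motif, TCAAAG, beginning 140 bases before it, both in capitals.
Defb6: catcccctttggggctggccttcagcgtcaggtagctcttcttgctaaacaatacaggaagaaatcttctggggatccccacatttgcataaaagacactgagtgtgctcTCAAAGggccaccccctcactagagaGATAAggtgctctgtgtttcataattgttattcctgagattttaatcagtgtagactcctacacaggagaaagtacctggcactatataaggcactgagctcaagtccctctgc

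Gata6 encodes a zinc-finger transcription factor of the sebaceous duct and junctional zone and was the only transcription factor in the group. It lies on chromosome 18, 11052064 to 11085635, plus strand. Knockout levels were 30.0 (DE679), 37.7 (DE685) and 42.6 CPM (DE688), and control levels 21.9 (DE680), 15.2 (DE684) and 22.5 CPM (DE689). Each group varied by a factor of 1.42 to 1.49 from lowest to highest, and the groups did not overlap. The means were 36.8 ± 6.35 and 19.8 ± 4.07 CPM (SD, n = 3 each), and the log2 fold change was 0.89 (SE 0.18). Its exons share 93 of 6508 bases with 1010001N08Rik on the opposite strand, whose level was not analysed here.

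The libraries did not rank alike for the 6 genes. DE688 was the highest knockout library for 5 of the 6, all but Plet1. Among controls, DE689 was the highest for Lrig1, Gata6 and Sostdc1 and the lowest for Lgr6 and Defb6, while DE680 was the highest for Plet1, Lgr6 and Defb6. In the 4 libraries without Y-linked transcripts alone, an alternative chosen after seeing the data, Plet1 had a log2 fold change of 0.79 and Gata6 of 0.71. Each of the 6 genes stayed higher in the knockout, which groups without overlap nearly ensure for any subset of libraries. Plet1 alone was called in that fit, which called 0.499% of the genes tested higher.

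Per kilobase of annotated exon, Defb6 was the most abundant of the 6, with 832.3 ± 38.8 CPM per kilobase in the knockout and 463.3 ± 105.7 in the control. Sostdc1 followed with 71.8 ± 11.8 and 51.6 ± 3.94, then Plet1 with 56.5 ± 0.241 and 32.0 ± 1.14, and then Lrig1 with 32.5 ± 7.33 and 21.3 ± 1.94 CPM per kilobase. Lgr6 had 9.62 ± 1.16 and 3.43 ± 1.47, and Gata6 had 5.65 ± 0.976 and 3.05 ± 0.625 CPM per kilobase (SD, n = 3 each). The order of the 6 was the same in both groups. In the control, Lgr6 and Gata6 did not differ beyond their spread, and in DE689 Lgr6 lay below Gata6, with 1.91 against 3.46 CPM per kilobase. In the knockout the lowest Lgr6 library, 8.29, lay above the highest Gata6 library, 6.55 CPM per kilobase. Krt79, a keratin of the infundibulum and sebaceous duct, had 456.9 ± 27.8 and 388.4 ± 52.0 CPM per kilobase, between Defb6 and Sostdc1 in both groups.

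A list of other genes known from the upper follicle was tested in the same fit. Of the 9 genes reported, 1 rose and 1 fell in knockout libraries by edgeR, 4 had an unadjusted p under 0.05 (19% of all genes tested did), DESeq2 called 3, and the median log2 fold change was 0.23. Nebl, an actin-binding protein of the nebulin family, rose from 41.6 ± 3.33 to 59.2 ± 4.97 CPM, by 0.51 (SE 0.09, edgeR adjusted p 0.0394). Teddm3, a membrane protein, fell from 31.5 ± 3.17 to 19.2 ± 1.84 CPM, or −0.71 on the log2 scale (SE 0.11, edgeR adjusted p 0.0237). These calls rested on all libraries: Nebl and Teddm3 passed in 0 of the 6 fits that left out a library, each with its direction kept. Both passed with the replicate block. The keratins known from the infundibulum did not pass in edgeR, while DESeq2 called Krt17 (DESeq2 adjusted p 0.00675) and not Krt79 (DESeq2 adjusted p 0.174). For Krt17 all knockout libraries lay above all control libraries, as they did for 12.8% of the genes tested. Krt79 had 2172 ± 132 against 1846 ± 247 CPM, with overlapping groups (log2 0.23, SE 0.10, edgeR adjusted p 0.270), and Krt17 had 1678 ± 312 against 1171 ± 202 CPM (log2 0.52, SE 0.16, edgeR adjusted p 0.146). Cst6, a cysteine protease inhibitor, had 1431 ± 264 against 1095 ± 140 CPM (log2 0.39, SE 0.15, edgeR adjusted p 0.224).

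**Figure D2:**
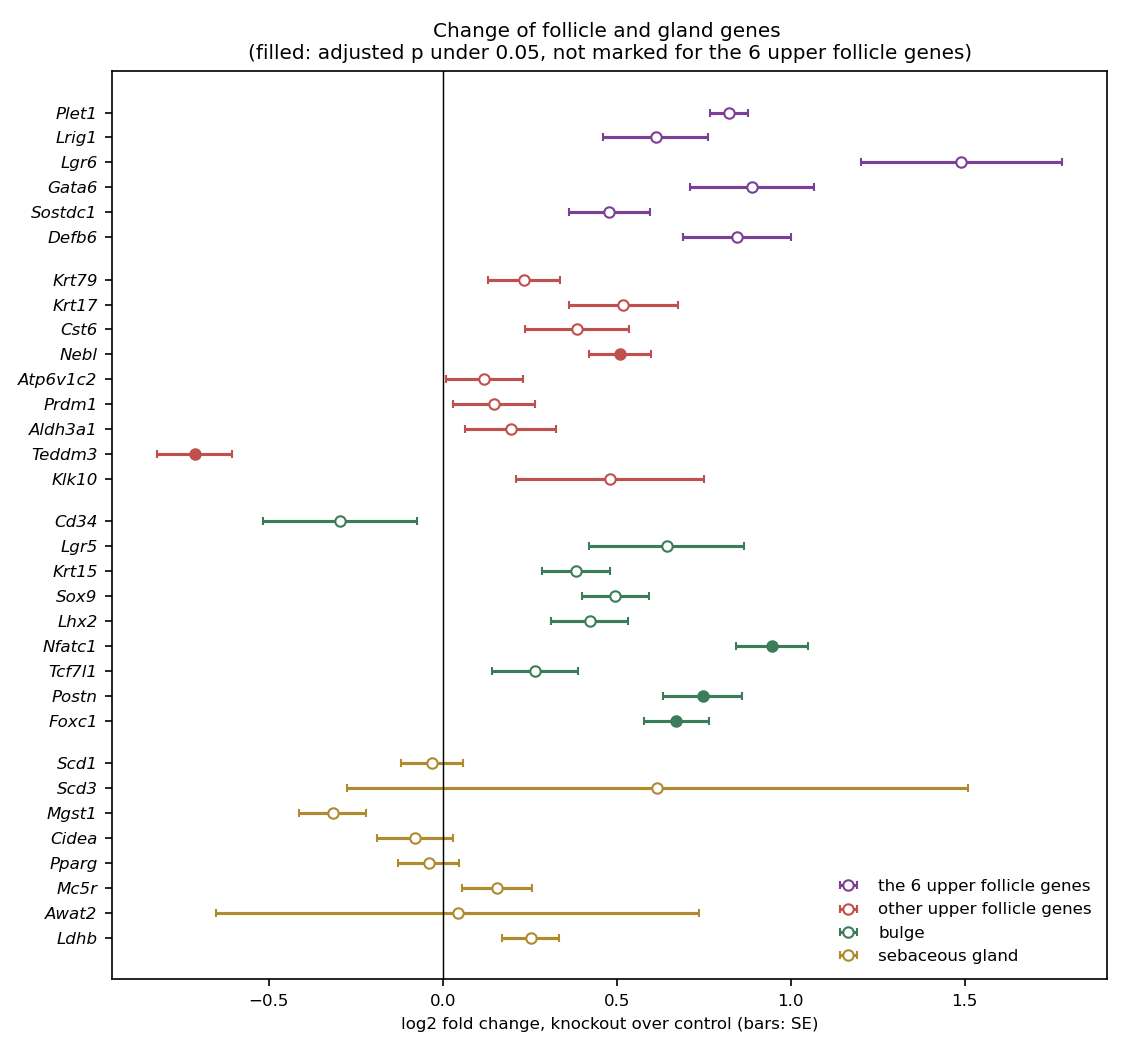
Log2 fold change, knockout over control (horizontal axis, bars show the SE), of the 6 upper follicle genes and of the genes listed for the upper follicle, the bulge and the sebaceous gland. Filled points have an adjusted p under 0.05, which is not marked for the 6. Lgr6 lies farthest to the right at 1.49 and Teddm3 farthest to the left at −0.71, and no sebaceous gland gene is filled.

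Set against Krt79 within the same library, which cancels the library scaling, 4 of the 6 genes kept every knockout library above every control library. The share of all genes that separate the groups in a ratio to Krt79 or Krt14 was not computed. The contrast was also known when the genes were chosen, so nothing is read from this count. Plet1 had 52.6, 52.4 and 47.5 CPM per 1000 CPM of Krt79 in DE679, DE685 and DE688, against 30.4, 32.4 and 39.5 in DE680, DE684 and DE689. Its ratio of means was 1.49, and those of Lgr6, Gata6 and Defb6 were 2.45, 1.55 and 1.54. For Lrig1 and Sostdc1 the ratios of means were 1.27 and 1.16, and only 1 knockout library of each lay above all controls. Lrig1 had 78.6, 72.4 and 98.3 in DE679, DE685 and DE688 against 52.4, 63.0 and 81.7 in DE680, DE684 and DE689, and Sostdc1 had 54.3, 56.4 and 65.4 against 40.7, 49.4 and 62.0 CPM per 1000 CPM of Krt79. The groups thus overlapped for these 2 genes. Within each of the 3 pairs of neighbouring tags the knockout was the higher. The pairing was taken up after seeing the data, and the share of all genes with this order was not computed. Nothing is therefore read from the pairs. Against Krt14, Plet1, Lgr6, Gata6 and Defb6 again separated the groups, with ratios of means of 1.73, 2.83, 1.81 and 1.79, and Lrig1 and Sostdc1 did so in 2 of the 3 knockout libraries.

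**Figure D3:**
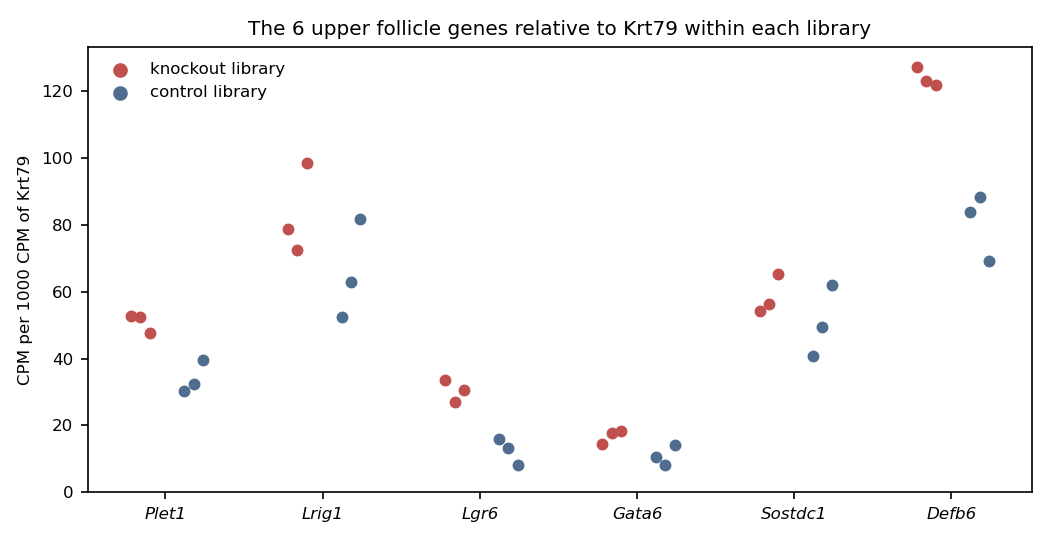
Level of each gene as CPM per 1000 CPM of Krt79 in the same library (vertical axis, starting at 0), with 1 point for each of the 3 knockout and 3 control libraries. The groups are apart for Plet1, Lgr6, Gata6 and Defb6 and overlap for Lrig1 and Sostdc1.

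In the adjoining compartments, 3 of 9 bulge genes rose and 0 fell by edgeR, and the median log2 fold change was 0.50. For 6 of the 9, all knockout libraries lay above all control libraries, as they did for 12.8% of the genes tested. In edgeR 7 had an unadjusted p under 0.05, against 19% of all genes tested. DESeq2 called 7, against 3.92% called higher and 2.14% lower over all genes. With the replicate block 7 of 9 rose, against 3.02% of all genes, and the 4 added were Lgr5, Krt15, Sox9 and Lhx2. Nfatc1, a transcription factor of bulge stem cells, rose from 107.8 ± 5.23 to 207.9 ± 29.3 CPM, by 0.95 (SE 0.10, edgeR adjusted p 0.00771). Postn, a matrix protein, rose by 0.75 (SE 0.11, edgeR adjusted p 0.0253), and Foxc1, a transcription factor of bulge quiescence, by 0.67 (SE 0.09, edgeR adjusted p 0.0186). Nfatc1 passed in all 6 fits that left out a library, but in the fit on the 4 libraries without Y-linked transcripts its adjusted p was 0.0638 and that of Foxc1 0.0922 in edgeR. Postn kept its call without DE684 or DE689 and lost it without DE679, DE680, DE685 or DE688. Foxc1 kept its call without DE679, DE680 or DE684 and lost it without DE685, DE688 or DE689. The bulge gene Lgr5, a relative of Lgr6 named after its values were seen, had 28.6 ± 5.14 against 18.3 ± 5.75 CPM and did not pass in edgeR (log2 0.64, SE 0.22, edgeR adjusted p 0.187; with the replicate block log2 0.67, SE 0.12, edgeR adjusted p 0.0298). Of 8 sebaceous gland genes, edgeR called 0, with 2 at an unadjusted p under 0.05, and DESeq2 called 1, Mgst1, which was lower. Of these 8, 1 had all knockout libraries above and 1 all below the controls, and the median was 0.0065. Scd1, the lipid desaturase of the gland, had 5129 ± 298 against 5239 ± 537 CPM. Among 6 basal keratinocyte genes edgeR called 0 (1 at an unadjusted p under 0.05, 1 called by DESeq2, median 0.047), and among 6 suprabasal genes also 0 (2 at an unadjusted p under 0.05, 1 called by DESeq2, median −0.29). With the replicate block 1 suprabasal gene, Krtdap, fell (log2 −0.28, SE 0.06, edgeR adjusted p 0.0382).

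The relatives and partners of the 6 genes were tested from lists as well. Of the 5 tested Lrig1 relatives and ErbB receptors, edgeR and DESeq2 called 0, with 1 at an unadjusted p under 0.05 (median 0.12). Egfr, the main ErbB receptor of keratinocytes, had 207.6 ± 9.43 against 212.1 ± 22.3 CPM (log2 −0.03, SE 0.08, edgeR adjusted p 0.876). Of 6 tested Lgr6 relatives, R-spondins and their ubiquitin ligases, edgeR called 0, with 1 at an unadjusted p under 0.05. DESeq2 called 1, Lgr5 (median −0.020). That median includes 2 low genes, Rspo1 (0.381 against 0.638 CPM, log2 −0.74) and Rspo3 (0.449 against 0.858 CPM, log2 −0.94). Lgr4, the broadly expressed relative of Lgr6, had 128.0 ± 8.90 against 114.9 ± 9.45 CPM (log2 0.16, SE 0.08, edgeR adjusted p 0.331). Per kilobase of exon, the control level of Lgr4 was 19.5 ± 1.61 CPM, above the 3.43 ± 1.47 of Lgr6. Of 8 tested Sostdc1 relatives, Lrp receptors and BMP genes, edgeR called 0, with 3 at an unadjusted p under 0.05, and DESeq2 called 1, Bmp7 (median −0.027). Lrp4, a receptor that Sostdc1 binds, had 208.8 ± 10.1 against 240.4 ± 11.4 CPM, with all knockout libraries below the controls (log2 −0.20, SE 0.06, edgeR adjusted p 0.152), and Bmp7 had 130.0 ± 7.27 against 105.8 ± 5.84 CPM (log2 0.30, SE 0.07, edgeR adjusted p 0.0841, and 0.0467 with the replicate block). Gata3, the only other Gata gene that was tested, had 145.1 ± 14.6 against 142.9 ± 10.7 CPM (log2 0.02, SE 0.09, edgeR adjusted p 0.918). Defb1, the most abundant of the other beta-defensins measured, had 20.4 ± 2.46 against 20.1 ± 2.88 CPM (log2 0.02, SE 0.13, edgeR adjusted p 0.958), and Defb4 was not called either (log2 −0.08, SE 0.70, edgeR adjusted p 0.962). Whether any of the 6 genes differed from its relatives in response was not tested.

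For orientation, 4 of 5 Hedgehog readout genes rose. Gli1 went from 9.14 ± 0.855 to 69.4 ± 4.42 CPM, or by 2.93 on the log2 scale (SE 0.10, edgeR adjusted p 1.77e-05), which exceeded each of the 6 upper follicle genes.

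Markers of other cells that could be present in an epidermal preparation gave the following values. Over 6 fibroblast genes the summed level was 128.8 to 142.2 CPM in the knockout libraries and 37.4 to 79.1 in the controls. This rested on Dcn, a matrix proteoglycan, which rose by 1.90 (SE 0.21, edgeR adjusted p 0.00782). The other 5 fibroblast genes, the fibrillar collagens among them, summed to 15 to 19 CPM in the knockout and 12.5 to 38.5 in the control. Melanocyte genes, of which edgeR called 0 of 4 (2 at an unadjusted p under 0.05, 1 called by DESeq2), summed to 58.1 to 93.3 against 39.4 to 62.5 CPM, and immune cell genes to 39.0 to 92.9 against 19.5 to 76.9 CPM. Of the tested immune, Merkel and endothelial genes, 0 had an unadjusted p under 0.05 in edgeR and DESeq2 called 0. With the replicate block 1 of them, the immune gene Cd74, rose (log2 0.59, SE 0.13, edgeR adjusted p 0.0438). Merkel cell genes summed to 6.00 to 8.94 against 4.79 to 6.14 CPM and endothelial genes to 2.54 to 3.50 against 3.57 to 5.48 CPM. Only Lyz2 of these markers was at 0 in a library. The part of such cells in the upper follicle values was not tested.

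The genes nearest to Plet1 in pattern were found by the root mean square difference between log2(CPM + 1) profiles over the 6 libraries, after each gene was centred on its own mean. Among 13664 genes the nearest were Sgms2 at 0.0645, Sez6l at 0.0738, Tspan33 at 0.0780, Fam83d at 0.0835 and Tbc1d16 at 0.0906 log2 units. Sgms2, a sphingomyelin synthase, had 23.0 ± 1.39 against 12.2 ± 0.777 CPM, and Tbc1d16, a regulator of Rab proteins, 30.5 ± 1.15 against 17.1 ± 1.35 CPM. Sez6l and Tspan33 had at most 2.33 CPM in any library, where the added 1 CPM compresses the scale. With 0.1 CPM added in its place, 3 of the 5 were again among the nearest 5, and these 2 were not. Among these 13664 genes Gata6 ranked 231, Defb6 312, Lrig1 356, Sostdc1 377 and Lgr6 11877. The measure includes the size of the knockout-to-control difference, which was known when the 6 genes were chosen. Nothing is therefore read from these ranks. Lgr6 was higher in the knockout as Plet1 was, with a log2 fold change of 1.49 against 0.82.

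**Figure D4:**
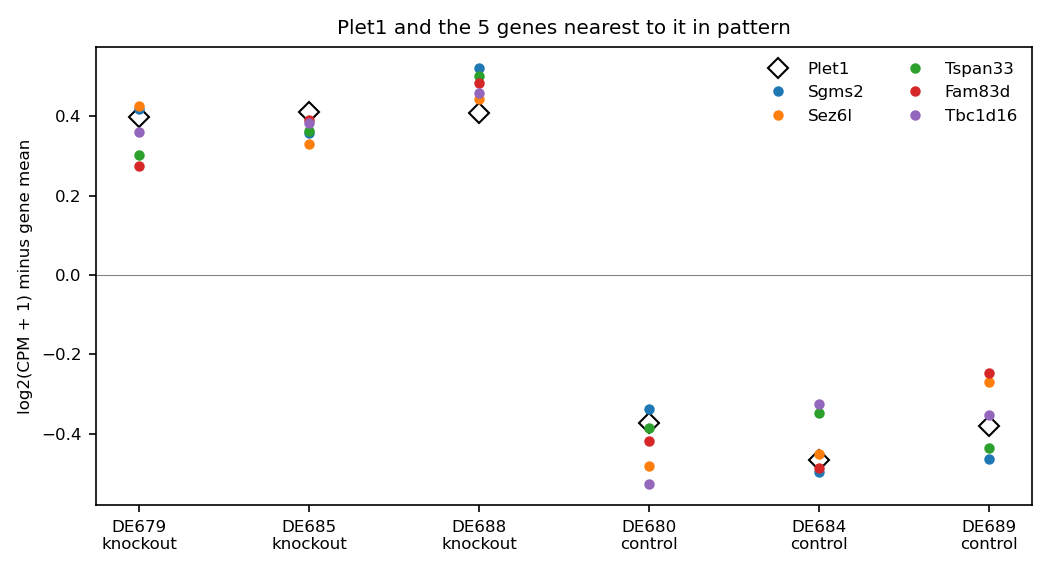
Log2(CPM + 1) minus the mean of the gene (vertical axis) in each of the 6 libraries (horizontal axis) for Plet1, drawn as open diamonds, and the 5 genes nearest to it, drawn as filled circles. All 6 lie above 0 in the knockout libraries and below 0 in the control libraries.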

How the data were processed

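RNA was taken from tail keratinocytes after trypsin and dispase separation of the epidermis, per the labels' protocols. The submitters' processing notes list bcl2fastq 2.20, cutadapt 1.18, STAR 2.7.0f and Partek and the build mm10, without roles. The authors deposited estimated counts per gene, of which 53.4% to 58.2% were whole in a library (tolerance 1e-09), and a normalized signal that equals the count times a constant of each library plus 0.001. Whether duplicates marked per the file headers were removed, and the counting strand, are not given in the sources used here.

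Estimated counts were rounded, filtered with filterByExpr, scaled with TMM (0.975 to 1.03) and fitted with glmQLFit and glmQLFTest of edgeR 4.0.16 (R 4.3.3) with genotype as the only term, without a block. The test had been laid out for such counts. P-values were adjusted by Benjamini-Hochberg over 15422 genes, with a threshold of 0.05. SEs were computed from each fold change and F value. Columns show a group but no replicate number. Their tags form 3 pairs of neighbouring numbers. Over 15422 genes the deviations from the group means correlated within each pair (r = 0.238, 0.388 and 0.41). In the other 6 combinations r ran from −0.34 to −0.0797. Deviations from a group mean cancel out within the group, so the negative values follow in part from the positive ones. The pair of DE685 and DE684 holds the libraries with Y-linked transcripts, and what the libraries of a pair share was not tested. The pairs were also fitted as a replicate block. The pairing comes from the tags and the data, as no label states it. Titles number the samples of a group and nothing else says that they came from separate mice, so p-values measure the spread between these samples, which may be technical. Pairs within a group differed by more than counting noise (chi-square over its degrees of freedom 12.2 to 39.9). A two-sided exact permutation p has a floor of 0.1 for 3 against 3. Alternatives were RLE factors, no filter, a minimum mean of 1 CPM, the DESeq2 1.42.0 Wald test, limma 3.58.1 on log2 of the deposited normalized values plus 1, each library left out in turn and, added after seeing the data, the 4 libraries without Y-linked transcripts and the replicate block.

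The 6 genes and all lists were chosen with earlier results of these data known. A further gene of the upper follicle list was in the fit but is not reported here, and the counts of that list leave it out. From each list, genes past the threshold were named, then up to 3 of the most abundant; Lgr5 and the antisense partners were named besides, after their values were seen. Exon lengths come from GENCODE M21, whose coordinates equal those deposited for the 6 genes, and near copies from BLAST 2.17.0 over at least 100 bases. Counts carry counting error and reads have no molecular identifiers in the labels.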

Additional observations from a re-analysis of the deposited data

How the results depend on the processing

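The log2 fold changes of the 6 upper follicle genes were recomputed under 13 alternatives each. All 78 values were positive, and all 78 lay within 1 SD between replicates of the value reported. Neither count gives separate support. Leaving out 1 of 3 libraries of a group can hardly move its mean by that SD, and the other fits reuse the same libraries. The groups did not overlap for any of these genes, so leaving out libraries could hardly change a sign. Over these alternatives they ran from 0.79 to 0.84 for Plet1, 0.41 to 0.72 for Lrig1, 1.2 to 1.82 for Lgr6, 0.71 to 1.02 for Gata6, 0.34 to 0.56 for Sostdc1 and 0.67 to 0.97 for Defb6. The number of genes called was 247 (192 higher, 55 lower). It was 864 with the DESeq2 Wald test (559 higher, 305 lower, so 64.7% higher against 77.7%), 87 in only the libraries without Y-linked transcripts, 704 with the replicate block (465 higher, 239 lower, 66.1% higher) and 69 to 121 when a library was left out. Counts from fits on fewer libraries are not directly comparable with that of the main fit. The causes of the lower counts and of the DESeq2 count were not tested. Among 53 other named genes 0 calls reversed. Leaving out a library weakened 24 of their values, and the other alternatives weakened 5 and strengthened 14. The replicate block ended no call among them, and those it added stand beside their results. No fit by the replicate numbers of the titles was run, since the columns do not carry them. In a library 3 counts correspond to 0.117 to 0.173 CPM, far below the 6 genes. Depth thus limits only low relatives such as Defb4, Rspo1 and Rspo3.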
